A study of Macaca mulatta with 51 samples.

Results

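The immediate early genes FOS, FOSB, JUN, JUNB, EGR1, EGR2, EGR3, ATF3, IER2 and DUSP1 were followed in biopsies of adipose tissue (AT) and skeletal muscle (SM) of rhesus macaques treated with FGF21. They were taken from the count table by gene symbol, 10 of 16033 genes. In each tissue all 10 reached 0.5 CPM (a count scaled to library size) in 10% or more of the libraries, and all were tested.

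The macaques, 5 males and 5 ovariectomized females aged 11 to 22 years, had diet-induced obesity (DIO) after at least 2 years on a high-fat diet. Native human FGF21 was injected under the skin once daily for 12 weeks at rising doses, and 1 animal was held at a lower final dose than the others. Punch biopsies of subcutaneous abdominal AT and of gastrocnemius SM were taken under isoflurane anesthesia before treatment (pre-treatment), when the injections ended (post-treatment) and again following 16 weeks off FGF21 (washout). AT gave 10, 9 and 8 libraries at these time points, from 10 animals, and SM gave 6, 8 and 7 libraries from 8 animals. Every animal received FGF21, so that an effect of treatment and an effect of time, weight or repeated biopsy cannot be told apart.

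Immediate early genes are switched on within minutes of a stimulus by transcription factors already present in the cell, mainly SRF with its ETS partners and CREB, which are activated by MAP kinase and related pathways. Their mRNAs are short-lived, and many of their products are themselves transcription factors: FOS, FOSB, JUN, JUNB and ATF3 are leucine-zipper proteins that pair with each other in AP-1 and related dimers, and EGR1, EGR2 and EGR3 are zinc-finger factors. FGF21 signals through an FGF receptor with the co-receptor β-Klotho and activates ERK in adipocytes, while growth factors, cell stretch, ischemia and tissue handling are also known to raise these genes.

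Total counts on genes ranged from 14455200 to 23941000 per library (rounded to 6 digits). The labelled tissues carried their own markers: 5 adipocyte markers summed to between 9489 and 32663 CPM in AT and to between 36.7 and 1181 CPM in SM, and 8 skeletal muscle markers summed to between 51.3 and 165 CPM in AT. In SM the muscle marker sum was between 115262 and 204034 CPM at pre-treatment and washout, but 4 of the 8 post-treatment libraries (animals 20275, 21189, 21866 and 24849) were lower, between 42700 and 105612 CPM, and had fibroblast marker sums of 4446 to 16685 CPM against 215 to 529.5 CPM in the other 4. SM results are therefore also given without these 4 libraries. The library identifiers fall into 3 number series, here called first, middle and last. In SM, 5 of 8 post-treatment libraries were in the first series and 6 of 7 washout libraries in the last, and 3 of the 4 libraries low in muscle markers were the only post-treatment libraries of the last series. Without those 4, every post-treatment SM library is of the first series, so that series and time point coincide more closely there. Of the animals then left post-treatment, 20456 has no pre-treatment SM counts here.

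A gene is called DE here when the adjusted p is under 0.05 and the log2 fold change is beyond 0.26 in either direction. In AT, JUN was the member that was DE and higher post-treatment than pre-treatment, while 9 of 10 members had a positive log2 fold change. The share of all genes with a positive value was not computed. By animal, JUN and IER2 were higher in 7 of 9, and EGR1, EGR3 and ATF3 in 6. FOS and FOSB were higher in 5, JUNB and EGR2 in 4 and DUSP1 in 2. JUN and ATF3 were DE and lower at washout than post-treatment. Post-treatment, 1 of 10 members was DE, against 15.5% of all genes tested. At washout compared to post-treatment, 2 of 10 were DE, against 35.4% of all genes. At washout compared to pre-treatment none of the 10 was DE, against 20.5% of all genes, with none at an unadjusted p under 0.05 other than FOSB in edgeR's quasi-likelihood test, while 1 member was DE with DESeq2 and 1 with limma. The members were thus DE no more often than genes at large. The median log2 fold change of the 10 members was 0.36 post-treatment (0.03 over all genes), -0.15 from post-treatment to washout (-0.002 over all genes) and 0.06 from pre-treatment to washout (-0.02 over all genes).

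JUN, the partner shared by most AP-1 dimers, had levels in AT of 26.2 (lowest), 42.4 (median) and 58.0 CPM (highest) pre-treatment. Post-treatment these were 39.0, 49.7 and 79.5 CPM, and at washout 29.8, 34.7 and 57.7 CPM. The groups overlapped, but 7 of 9 animals were higher post-treatment than pre-treatment and 6 of 8 were lower again at washout. The rise was 1.42-fold, or 0.50 on the log2 scale (SE 0.16), and was DE in edgeR's quasi-likelihood test (adjusted p = 0.0364). JUN later fell by 0.52 on that scale (SE 0.16), which was DE too (adjusted p = 0.0184). From pre-treatment to washout the log2 fold change was -0.01 (SE 0.16). Both calls were close to the threshold. The rise was not DE with limma (log2 fold change 0.34, adjusted p = 0.0857), with only those time points in the fit (0.49, 0.0572), without the animal in the model (0.44, 0.0737), with the library series as a covariate (0.45, 0.0556) or without the pre-treatment library of animal 20275 (0.45, 0.0827), and the fall was not DE with the series (-0.39, 0.0987). The rise was no longer DE without animal 20275 (log2 fold change 0.43, adjusted p = 0.103), 21189 (0.51, 0.0686), 22130 (0.40, 0.124), 24849 (0.48, 0.0649) or 26292 (0.50, 0.0746), and the fall was not DE without animal 20275 (-0.46, 0.0517), 21189 (-0.48, 0.0568), 22130 (-0.43, 0.055) or 26292 (-0.48, 0.0557). In the 6 animals with both libraries in the last series the mean change post-treatment was 0.46 on the log2 CPM scale, and in the 2 with both in the middle series it was 0.18. In the later interval it was -0.45 in the 3 animals with both libraries in the last series, of which 1 was higher at washout.

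ATF3, a stress-induced factor that can repress or activate AP-1 and CRE sites, had the largest log2 fold changes of the members in AT post-treatment and from post-treatment to washout. Its levels were 7.03 (lowest), 22.1 (median) and 53.3 CPM (highest) pre-treatment. Post-treatment they were 18.1, 41.0 and 226 CPM, and at washout 3.97, 12.2 and 77.5 CPM. Post-treatment compared to pre-treatment, 6 of 9 animals were higher and the log2 fold change of 1.001 (SE 0.56) did not pass the test (adjusted p = 0.21). ATF3 then fell by 1.73 on the log2 scale from post-treatment to washout (SE 0.59, adjusted p = 0.0268 in edgeR's quasi-likelihood test), and 6 of 8 animals were lower. All 3 animals with both libraries in the last series were lower, with a mean change of -2.0. The call was lost without animal 21189 (log2 fold change -1.66, adjusted p = 0.0695), 21866 (-1.71, 0.0535), 22130 (-1.49, 0.0758) or 24849 (-1.73, 0.0586). At washout compared to pre-treatment the log2 fold change was -0.73 (SE 0.56, adjusted p = 0.383).

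**Figure D1:**
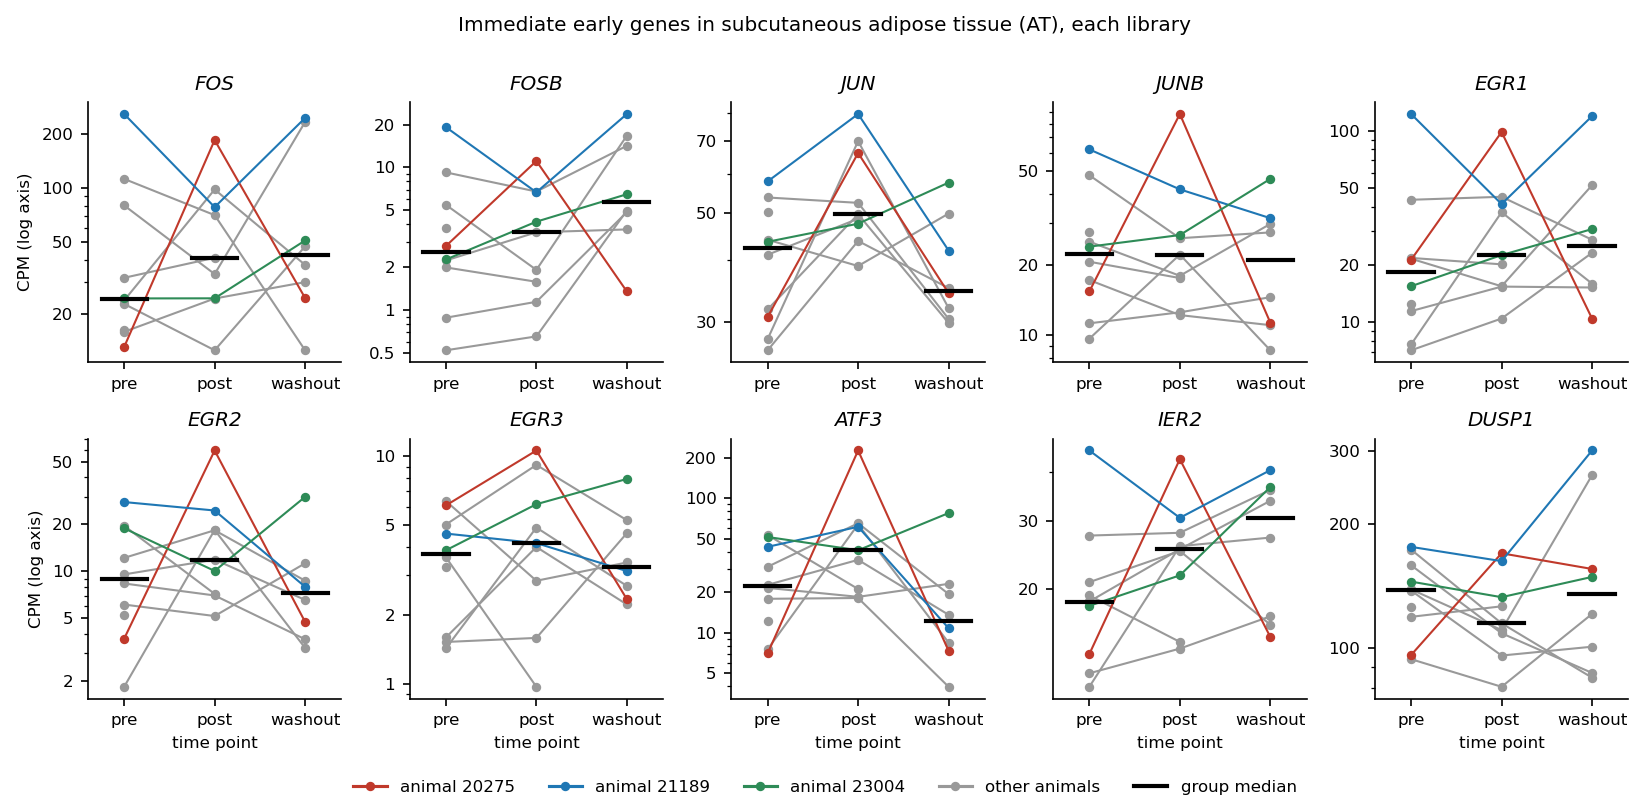
Levels of the 10 immediate early genes in AT (CPM, log axis) at pre-treatment, post-treatment and washout. Each point is a library, lines join the libraries of an animal, 3 animals are colored and black bars are medians of 10, 9 and 8 libraries. The post-treatment library of animal 20275 is the highest of its group for 9 of 10 genes, while most JUN lines rise and then fall.

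Other cell type markers in AT moved over the same intervals. All 7 macrophage markers had a positive log2 fold change post-treatment, none of them DE, and all 7 were DE and lower at washout than post-treatment. Post-treatment compared to pre-treatment 2 of 5 adipocyte, 1 of 5 smooth muscle, 1 of 4 neutrophil and 1 of 3 erythroid markers were DE and lower, 1 of 5 fibroblast and 1 of 3 T cell markers were DE and higher, and no endothelial, skeletal muscle or mast cell marker was DE. The summed level of the macrophage markers was 458 to 1931 CPM pre-treatment (median 1065), 706 to 4257 CPM post-treatment (median 1909) and 288 to 1946 CPM at washout (median 519), and no marker was at 0 in any AT library. Of 5 smooth muscle markers, 3 were DE and higher at washout than post-treatment, with sums of 852 to 1976 CPM post-treatment and 1218 to 4540 CPM at washout. Of 5 erythroid markers 3 could be tested, and all 3 were DE and higher at washout. In the same comparison 2 of 5 fibroblast markers and 1 of 3 T cell markers were DE and lower, though all 5 and all 3 had a negative log2 fold change. Of the others, 1 of 6 endothelial and 1 of 8 skeletal muscle markers were DE and higher, and 1 of 5 adipocyte markers was DE and higher and 1 DE and lower. No neutrophil (4 tested) or mast cell marker (4 tested) was DE. In tissue biopsies fewer cells of a type and less RNA per cell cannot be told apart, and the part of these markers in the changes of JUN and ATF3 was not tested.

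FOS, FOSB and JUNB did not pass the test in AT. FOS, the gene by which immediate early induction is usually followed, had levels of 13.1 (lowest), 24.1 (median) and 258 CPM (highest) pre-treatment, 12.6, 41.0 and 185 CPM post-treatment, and 12.6, 42.4 and 245 CPM at washout. The ranges nearly coincided, and 5 of 9 animals were higher and 4 lower post-treatment. The log2 fold changes of FOS were 0.38 (SE 0.57) post-treatment, 0.12 (SE 0.60) from post-treatment to washout and 0.49 (SE 0.57) from pre-treatment to washout. Without animal 20275 the first of these values was -0.11.

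FOSB, a FOS paralog with a shorter isoform known for its stability in brain, had levels of 0.522 to 19.2 CPM pre-treatment (median 2.54). Post-treatment its range was 0.654 to 11.1 CPM (median 3.51), and at washout 1.35 to 23.7 CPM (median 5.74). At washout 7 of 8 animals were above their pre-treatment value, and 7 of 8 above their post-treatment value. The log2 fold changes were 1.19 (SE 0.45, adjusted p = 0.0683) and 1.08 (SE 0.47, adjusted p = 0.0767), so that neither was DE in edgeR's quasi-likelihood test. Both passed with DESeq2 (adjusted p = 0.00858 and 0.0128), with limma (0.0478 and 0.00285) and without animal 20275 (log2 fold change 1.31 and 1.61, adjusted p = 0.0085 and 0.00192). Over the alternative fits the adjusted p of these changes reached 0.25 and 0.159. With each animal left out in edgeR's quasi-likelihood test it reached 0.153 and 0.22, and the log2 fold changes were as low as 0.99 and 0.80. JUNB, which replaces JUN in dimers of weaker activity, lay between 9.66 and 62.1 CPM pre-treatment, 12.2 and 87.9 CPM post-treatment and 8.62 and 46.5 CPM at washout, with medians of 22.2, 22.1 and 21.0 CPM.

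None of the EGR factors was DE in AT. EGR1, an ERK target in many cell types, had median levels of 18.3, 22.4 and 25.02 CPM at the 3 time points, within ranges of 7.14 to 122, 10.5 to 98.6 and 10.5 to 119 CPM. Its log2 fold change post-treatment was 0.54 (SE 0.40, adjusted p = 0.357), and 6 of 9 animals were higher. EGR2 had median levels of 8.97, 11.9 and 7.27 CPM and was highest, at 59.4 CPM, in the post-treatment library of animal 20275. EGR3 had 19 to 211 reads per AT library and medians of 3.73, 4.15 and 3.27 CPM.

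IER2, a nuclear protein induced with FOS and JUN, had median levels in AT of 18.5, 25.4 and 30.5 CPM. It was higher than pre-treatment in 7 of 9 animals post-treatment and in 6 of 8 at washout, and no comparison passed the test. DUSP1, the phosphatase that switches off MAP kinases and is itself an immediate early gene, had median levels of 138, 115 and 135 CPM. Pre-treatment its range was 93.8 to 176 CPM and post-treatment 80.4 to 170 CPM. At washout the animals 21866 and 21189 stood at 262 and 301 CPM, and the other 6 lay between 84.6 and 155 CPM.

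Genes around the members were counted by function. The background for each AT list below is the share of all genes that were DE. It was 15.5% post-treatment, 35.4% from post-treatment to washout and 20.5% from pre-treatment to washout. Of 43 other immediate early genes tested in AT, 5 were DE and higher post-treatment and none was DE and lower, and the list's median was 0.20. The largest were IER5 (0.84, SE 0.23), ZFP36L1 (0.50, SE 0.12) and ZFP36L2 (0.46, SE 0.14), the last a pair of proteins that destabilize AU-rich mRNAs. IER5 was not DE without animal 20275 (0.65), 21866 (0.83) or 22130 (0.71), ZFP36L1 without 22130 (0.41), and ZFP36L2 without any 1 of 20261, 20275, 21189, 21866, 22130 and 26292 (0.39 to 0.48). Relative to post-treatment, 3 were DE and higher and 9 DE and lower at washout. Among the lower were GADD45G (-1.003, SE 0.20) and SGK1 (-0.999, SE 0.34), and CCNL1 was among the higher (0.95, SE 0.14). SGK1 was not DE without animal 21189, 21866, 22130 or 24849 (-1.01 to -0.94). At washout compared to pre-treatment 4 were DE and higher and 4 DE and lower, led by CCNL1 (1.26, SE 0.14), PLK2 (0.88, SE 0.16) and the nuclear receptor NR4A2 (0.71, SE 0.23). NR4A2 was not DE without animal 20261, 21189 or 26292 (0.61 to 0.73). The medians of the list in these comparisons were -0.20 and 0.04.

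Among 11 AP-1 partners and EGR co-repressors in AT, 2 were DE and higher post-treatment, among them the EGR co-repressor NAB2 (0.55, SE 0.18). ATF5 was DE and lower (-1.26, SE 0.20). NAB2 was not DE without any 1 of animals 20261, 20275, 20456, 21189, 21866, 22130, 24849 and 26292 (0.44 to 0.62). From post-treatment to washout 5 were DE and lower, led by BATF (-1.80, SE 0.42), and ATF5 was DE and higher (1.01, SE 0.20). JDP2, a repressor of AP-1, was the one DE gene of the list at washout compared to pre-treatment (-0.51, SE 0.10). The medians of the list were 0.16, -0.40 and -0.09. Of 22 upstream factors and kinases in AT, ATF1 was DE and higher post-treatment (0.48, SE 0.11). From post-treatment to washout 11 were DE and lower and 1 DE and higher. The largest of these were the ERK-activated kinase RPS6KA1 (-1.53, SE 0.36), BRAF (-0.85, SE 0.12) and the JNK gene MAPK8 (-0.62, SE 0.12). BRAF (-0.80, SE 0.12) also led the 5 that were DE and lower at washout than pre-treatment. The SRF co-activator MKL2 was DE and higher there (0.39, SE 0.13), though not DE without animal 20261, 20275, 23004 or 26292 (0.34 to 0.40). The medians of this list were 0.09, -0.26 and -0.17.

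Secondary response genes are by definition induced through the proteins that immediate early genes encode. Whether each gene of the list used here is induced that way was not tested. Of 20 tested in AT, PLAU was DE and higher (0.78, SE 0.24) and CCND1 DE and lower (-0.40, SE 0.12) post-treatment. PLAU was not DE without animal 20261, 20275, 21189, 22130, 24849 or 26292 (0.57 to 0.83), nor CCND1 without 20261, 20275, 20456, 22130 or 26292 (-0.43 to -0.32). Between post-treatment and washout 4 were DE and higher and 5 DE and lower, among them the protease gene MMP9 (-2.29, SE 0.78) and tissue factor, F3 (1.25, SE 0.15). MMP9 was not DE without animal 20275 (-1.76), 21189 (-2.07) or 22130 (-1.69). At washout compared to pre-treatment 5 were DE and higher and none DE and lower, led by IL6 (1.18, SE 0.35), F3 (0.95, SE 0.15) and the chemokine CXCL2 (0.88, SE 0.28). Counted without the test, 11 were higher and 9 lower. IL6 was not DE without animal 22130, 24849 or 26292 (1.01 to 1.10), nor CXCL2 without 20261, 21189, 21866 or 26292 (0.68 to 0.87). The medians were 0.17, 0.02 and 0.17. Of 10 heat shock genes, HSPD1 was DE and lower post-treatment (-0.40, SE 0.13). HSPA1A (-0.78, SE 0.18), HSPH1 (-0.61, SE 0.18) and DNAJA1 (-0.31, SE 0.08) were DE and lower at washout than post-treatment. HSPA8 (-0.38, SE 0.12) and DNAJA1 (-0.37, SE 0.09) were DE and lower at washout than pre-treatment. HSPD1 was not DE without animal 20275, 20456, 22130, 24849 or 26292 (-0.39 to -0.33), nor HSPA8 without 20261, 20275, 23004 or 26292 (-0.40 to -0.34). The heat shock medians were -0.05, -0.19 and -0.26.

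In SM none of the 10 members was DE in any comparison. Post-treatment compared to pre-treatment no gene at all was DE in edgeR's quasi-likelihood test (0% of all genes, 409 genes at an unadjusted p under 0.05), and the smallest unadjusted p among the members was 0.143, for FOS. At washout compared to post-treatment 0.19% of all genes were DE, and at washout compared to pre-treatment 0.0634%. DUSP1 was the member under an unadjusted p of 0.05 in the former, and DUSP1 and FOS in the latter. The median log2 fold changes of the members were -0.14 post-treatment (-0.02 over all genes), -0.49 from post-treatment to washout (-0.03) and -0.32 from pre-treatment to washout (-0.05). The 42 other immediate early genes tested in SM had medians of -0.17, -0.32 and -0.34, and none of them, nor any gene of the other 4 lists, was DE in these comparisons.

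DUSP1 in SM was at 83.8 (lowest), 171 (median) and 259 CPM (highest) pre-treatment, and at 105, 128 and 170 CPM post-treatment. At washout these were 30.3, 82.5 and 139 CPM. It was lower at washout in 7 of 7 animals compared to post-treatment and in 6 of 6 compared to pre-treatment. The log2 fold changes were -0.95 (SE 0.24, unadjusted p = 0.0014, adjusted p = 0.117 in edgeR's quasi-likelihood test) and -1.16 (SE 0.26, adjusted p = 0.112). With DESeq2 both passed (adjusted p = 0.0149 and 0.00511), as they did with the library series in the model (0.00721 and 0.0138). The series also raised the number of DE genes from 24 to 2648 and from 8 to 1353, of 12617 tested. Both animals with post-treatment and washout libraries in the last series, 21189 and 24849, were lower at washout, with a mean change of -1.27. Their post-treatment libraries are among the 4 low in muscle markers. The 5 with libraries of different series had a mean change of -0.82. Without the 4 libraries low in muscle markers the log2 fold changes were -0.74 (adjusted p = 0.272) and -1.11 (adjusted p = 0.0235), the latter DE. No erythroid marker was DE in SM (3 tested). The sum of the 5 was 8.25 to 127 CPM pre-treatment, 16.5 to 4278 CPM post-treatment and 63.4 to 1628 CPM at washout, with up to 4 of 5 markers at 0 in a pre-treatment library. The part of the series and of these markers in the DUSP1 values was not tested.

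FOS in SM was at 22.6 (lowest), 34.8 (median) and 148 CPM (highest) pre-treatment, 9.24, 22.7 and 85.6 CPM post-treatment and 6.40, 16.7 and 106 CPM at washout. All 6 animals with both libraries were lower at washout than pre-treatment, with changes between -3.44 and -0.18 on the log2 CPM scale. The log2 fold change was -1.13 (SE 0.52, adjusted p = 0.366), and post-treatment it was -0.76 (SE 0.49, adjusted p = 1). Without the 4 libraries low in muscle markers, the value post-treatment was -1.58 (adjusted p = 0.237) and that from post-treatment to washout turned from -0.37 to 0.31, neither of them DE.

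FOSB in SM had a median of 1.93 CPM pre-treatment, 1.73 CPM post-treatment and 0.827 CPM at washout, and ranges of 0.843 to 10.1, 0.207 to 13.8 and 0.326 to 23.0 CPM. JUN stayed between 24.2 and 81.5 CPM over all SM libraries, with medians of 48.7, 49.0 and 58.5 CPM. JUNB had medians of 5.94, 4.13 and 2.71 CPM and was lower at washout than pre-treatment in 5 of 6 animals. ATF3 ranged from 12.9 to 327 CPM post-treatment, the highest value that of animal 22130, whose level was 19.1 CPM pre-treatment and 47.5 CPM at washout. Its log2 fold change post-treatment was 0.65 (SE 0.52), with 3 of 6 animals higher and 3 lower.

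EGR1 in SM had medians of 23.2, 15.9 and 11.8 CPM, and animal 21189 stood apart post-treatment at 108 CPM, with the next library at 20.9 CPM. EGR2 was near the limit of detection, with 1 to 28 reads per library except for some post-treatment libraries, which reached 364 reads, or 14.9 CPM, in animal 21189. Such low levels carry counting error as well as the difference between animals. EGR3 was at 0.226 to 17.1 CPM and IER2 at 3.02 to 23.3 CPM over the SM libraries, and the highest values were again those of animal 21189 post-treatment.

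**Figure D2:**
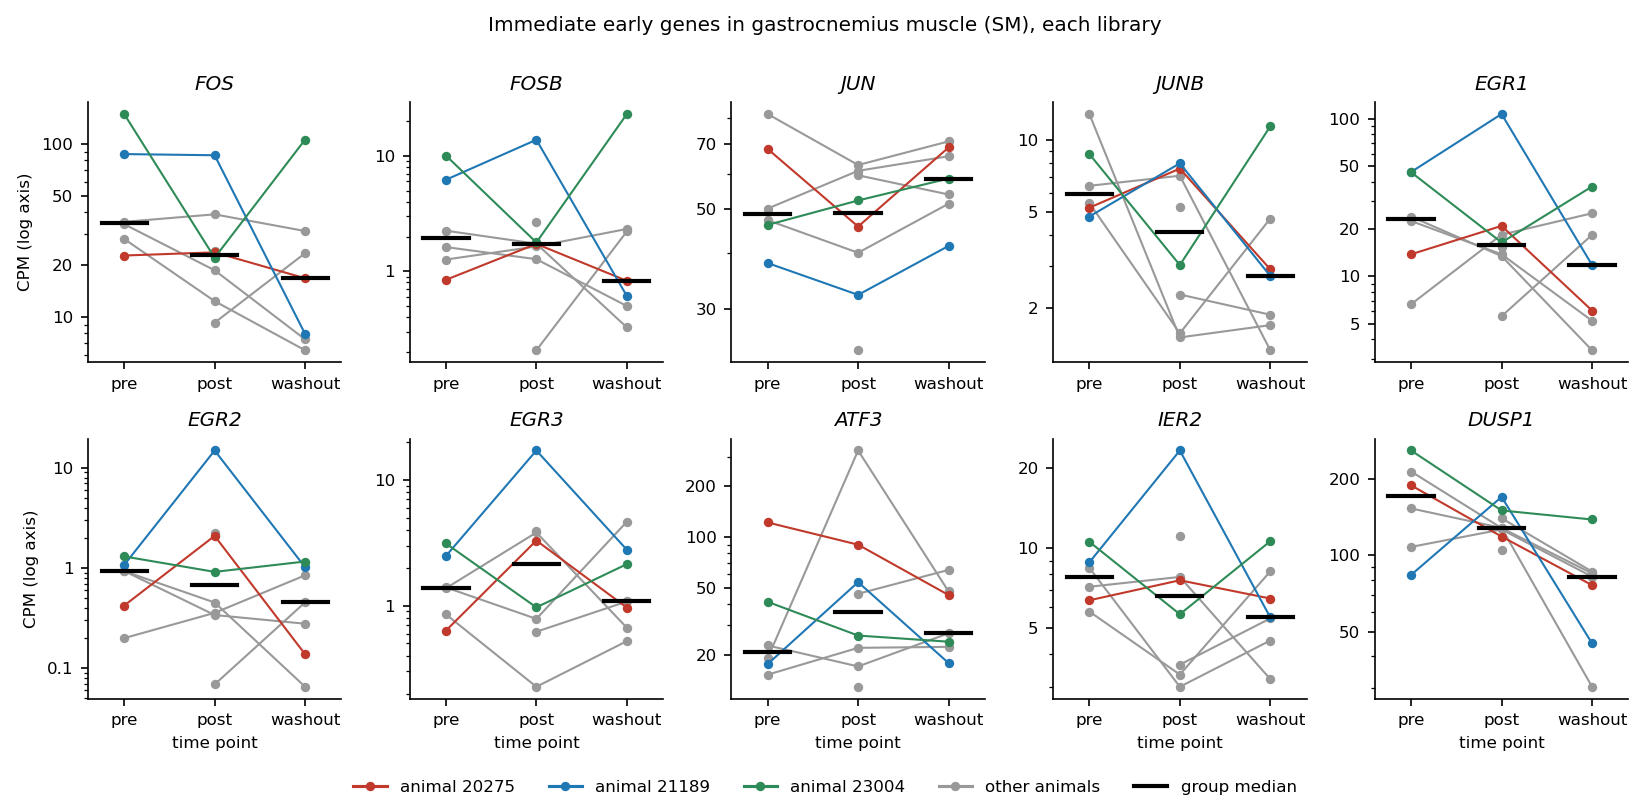
Levels of the 10 immediate early genes in SM (CPM, log axis) at pre-treatment, post-treatment and washout. Points are libraries, lines join libraries of an animal (8 animals) and black bars are medians of 6, 8 and 7 libraries. DUSP1 lines fall to washout in every animal, and the post-treatment library of animal 21189 is the highest of its group for 8 of 10 genes.

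**Figure D3:**
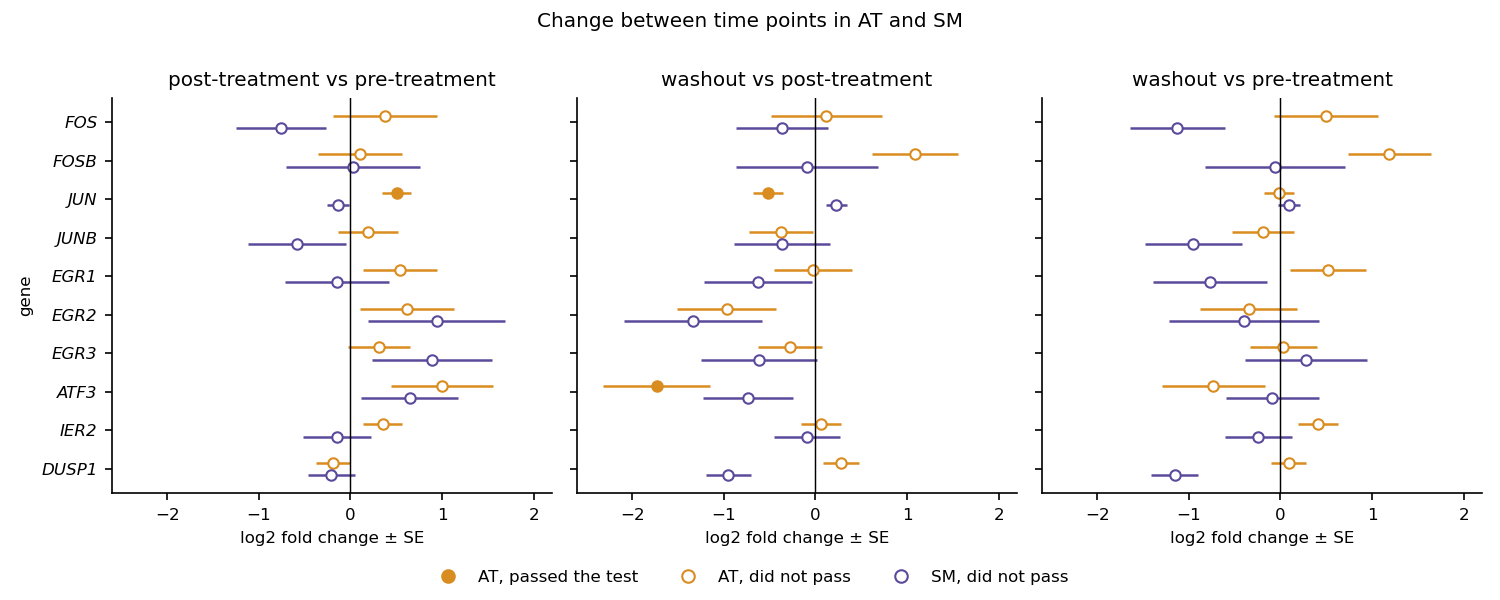
Log2 fold change of each immediate early gene with its SE from edgeR's quasi-likelihood fits, in AT (orange) and SM (purple), for the 3 comparisons of time points. Filled points passed the test: JUN post-treatment, and JUN and ATF3 at washout compared to post-treatment, all in AT.

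Whether the change differed between the tissues was tested in a joint fit of the 12322 genes tested in both. For post-treatment compared to pre-treatment no member differed, against 0.0487% of all genes, and 1 had an unadjusted p under 0.05, JUN (p = 0.0117, adjusted p = 0.321). From post-treatment to washout 2 members differed, against 22.7% of all genes, and from pre-treatment to washout 1, against 17.5% of all genes. JUN fell in AT, while its log2 fold change in SM was 0.23, a difference of 0.76 (SE 0.22, adjusted p = 0.0117). DUSP1 differed in the other direction, by -1.22 from post-treatment to washout (SE 0.32, adjusted p = 0.00668) and by -1.18 from pre-treatment to washout (SE 0.33, adjusted p = 0.0118), and the AT log2 fold changes of DUSP1 were 0.28 and 0.09. The JUN difference was not DE without animal 20275 (0.64, adjusted p = 0.0588), without animal 21189 (0.68, adjusted p = 0.0543) or without the SM libraries low in muscle markers (0.55, adjusted p = 0.102). The DUSP1 differences were -1.04 and -1.23 without those libraries, both DE. With limma neither JUN (0.62, adjusted p = 0.0742) nor DUSP1 (-1.01, adjusted p = 0.0552) differed from post-treatment to washout, and by library size JUN did not (0.56, adjusted p = 0.0593). Leaving out the SM libraries low in muscle markers made JUNB (-2.26, adjusted p = 0.0266) and IER2 (-1.46, adjusted p = 0.0159) differ between the tissues post-treatment. The number of DE genes in that comparison then went from 6 to 1968.

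Of 22 upstream factors and kinases, 20 had a higher log2 fold change in SM than in AT from post-treatment to washout, and 21 from pre-treatment to washout. The difference was DE for 9 in the former, against 22.7% of all genes, led by MAPK8 (1.47, SE 0.22), BRAF (1.41, SE 0.20) and RPS6KA2 (0.93, SE 0.28). It was DE for 6 in the latter, against 17.5% of all genes. None of the 22 was DE the other way. Of the 42 other immediate early genes tested in both tissues, 1 was DE and higher and 1 DE and lower from post-treatment to washout, against 22.7% of all genes. From pre-treatment to washout 4 of the 42 were DE, all lower, against 17.5% of all genes. CCNL1, which belongs to that list, differed by -1.74 (SE 0.26) and -1.96 (SE 0.27). The median differences of the 22 were 0.48 and 0.45, against -0.24 and -0.66 for the members and -0.03 and 0.01 over all genes.

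Between tissues at 1 time point most genes differed, 77.8% of all genes pre-treatment, 77.5% post-treatment and 77.3% at washout, and 4, 5 and 5 of the 10 members did. Levels here are CPM on 1 scale for both tissues. EGR2, known for its part in myelination and in immune cells, was lower in SM at each time point. Pre-treatment it was at 8.92 ± 6.52 CPM in AT (SD, n = 10) and 1.10 ± 0.57 CPM in SM (SD, n = 6), or -3.11 on the log2 scale (SE 0.73, adjusted p = 0.000235 in edgeR's quasi-likelihood test), and the values were -2.56 post-treatment and -3.24 at washout. JUNB was lower in SM too, with a log2 fold change pre-treatment of -1.001 (SE 0.44, adjusted p = 0.0378), with -1.82 and -1.65 later. The pre-treatment call for JUNB was lost without animal 20261 (-0.94), 20275 (-0.91), 20456 (-0.93), 21189 (-0.63) or 23004 (-0.99).

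IER2 was lower in SM post-treatment (-0.96, SE 0.26) and at washout (-1.13, SE 0.28), and did not pass the test pre-treatment (-0.59, adjusted p = 0.0535). JUN was higher in SM, at 74.9 ± 22.4 CPM against 32.0 ± 8.56 CPM pre-treatment (SD, n = 6 and 10), or 1.15 on the log2 scale (SE 0.20). It was 0.53 post-treatment (SE 0.19) and 1.32 at washout (SE 0.20). DUSP1 was higher in SM pre-treatment (1.04, SE 0.25) and post-treatment (0.97, SE 0.24), and at washout the log2 fold change was -0.15 (SE 0.26, adjusted p = 0.599). ATF3 was DE at washout alone (1.44, SE 0.64, adjusted p = 0.04), a call that was lost without animal 19832 (1.30), 20261 (1.44), 20275 (1.31), 20456 (1.27), 21189 (1.52), 21866 (1.36), 22130 (1.205) or 24849 (1.58). FOS, FOSB, EGR1 and EGR3 did not pass at any time point with all libraries in the fit. The pre-treatment value of EGR1 was 1.002 (adjusted p = 0.0633 in edgeR's quasi-likelihood test). With each animal left out it was 0.74 to 1.33 and the smallest adjusted p was 0.0181, so that it passed in at least 1 of those fits. Without the SM libraries low in muscle markers EGR3 post-treatment turned from 0.35 to -1.84 and passed (adjusted p = 0.00615), and IER2 pre-treatment passed (-0.57, adjusted p = 0.0268). Without animal 21189 FOS passed pre-treatment (1.54), without animal 23004 FOSB passed at washout (-1.68), and without animal 20275 ATF3 passed post-treatment (1.21). IER2 passed pre-treatment without animal 19832 (-0.66) or 23004 (-0.67), and DUSP1 at washout was 0.23 without animal 21189. Scaling by library size alone moved the median of all genes from -0.09 to -0.80 pre-treatment, from -0.08 to -0.77 post-treatment and from -0.15 to -1.08 at washout, and with it JUN post-treatment turned from 0.53 to -0.20. The higher levels of JUN, DUSP1 and ATF3 in SM are therefore relative to TMM scaling.

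The members differed widely between biopsies taken at the same time point. In AT the SD of log2 CPM after removal of time point means was 1.38 for FOS, 1.36 for FOSB, 1.16 for ATF3, 1.12 for EGR1 and 1.10 for EGR2, compared to a median of 0.33 over the 13367 genes tested. FOS had a wider spread than 98.4% of all genes, and 6 of 10 members were beyond the 90th percentile. JUNB (0.87) and EGR3 (0.86) followed. IER2 (0.56), DUSP1 (0.46) and JUN (0.37) were nearer the median, at the percentiles 74.2, 67.0 and 56.7. FOS ranged over 19.7-fold between the lowest and the highest of the pre-treatment AT libraries, and JUN over 2.21-fold.

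In SM the spread was 1.62 for FOSB, 1.46 for EGR2, 1.36 for EGR3, 1.18 for EGR1 and ATF3 and 1.17 for FOS, against a median of 0.46 over the 12617 genes tested, and 6 of 10 members were again beyond the 90th percentile. With a prior count of 0.5 in place of 2 in log2 CPM this count was 3. JUN had the narrowest spread (0.40, percentile 42.1), and after removal of animal means its SD was 0.19, at the percentile 6.94, so that SM levels of JUN differed mainly between animals. For FOS, removal of animal means lowered the SD from 1.38 to 1.26 in AT and from 1.17 to 1.06 in SM. The spread of FOS thus lay mainly between biopsies of the same animal. These percentiles are a description, since low levels also widen the spread on this scale.

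**Figure D4:**
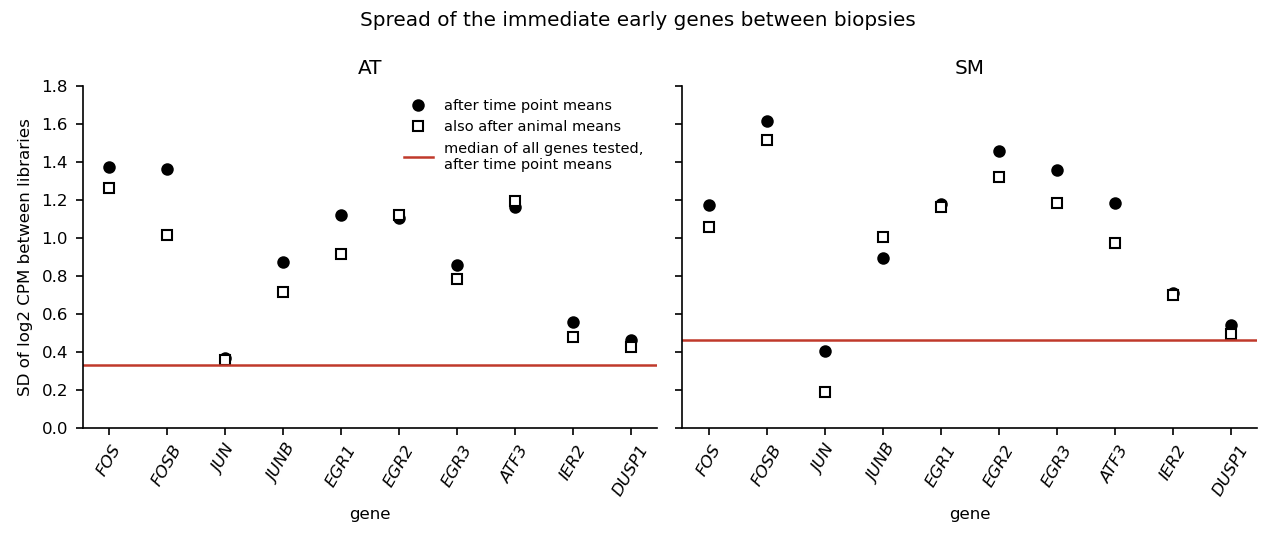
SD of log2 CPM of each immediate early gene between libraries, in AT (27 libraries) and SM (21 libraries), after time point means were removed (filled circles) and after animal means were removed as well (open squares). The red line is the median of all genes tested, 0.33 in AT and 0.46 in SM. FOS, FOSB, ATF3 and the EGR genes lie well above it and JUN near it.

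A few libraries were high for many members at once. In AT the post-treatment library of animal 20275 was the highest of its group for 9 of 10 members, with FOS at 185, EGR1 at 98.6 and ATF3 at 226 CPM. That animal was the lowest pre-treatment for FOS (13.1 CPM) and ATF3 (7.03 CPM). Pre-treatment the library of animal 21189 was the highest for 8 of 10 members, with FOS at 258 CPM. In SM animal 23004 was the highest for 6 of 10 members pre-treatment and for 7 at washout, and animal 21189 for 8 post-treatment. The latter library had the lowest muscle marker sum of the SM libraries (42700 CPM) and the highest fibroblast sum (16685 CPM), and its smooth muscle marker sum was 667 CPM against 61.9 to 183 CPM in the other 7. The AT library of animal 20275 had the highest macrophage marker sum post-treatment (4257 CPM) and the lowest smooth muscle marker sum (852 CPM). The part of these markers in the levels was not tested.

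The change of FOS between the pre-treatment and post-treatment biopsies of an animal was set against that of each other member. The share of all genes whose change went with that of FOS was not computed, so the counts have no background. Of 18 relations of the change of FOS with the change of another member, 9 in each tissue, 7 in AT and 2 in SM passed (Pearson's r, exact two-sided permutation test, Benjamini-Hochberg adjusted over the 18). In AT (9 animals) r was 0.86 for FOSB (exact permutation p = 0.00266, adjusted p = 0.024; Spearman's rho 0.83) and 0.89 for EGR1 (exact permutation p = 0.00126, adjusted p = 0.0226; rho 0.73). It was 0.89 for JUNB, 0.83 for IER2, 0.82 for ATF3 and EGR2 and 0.74 for JUN, with adjusted exact permutation p between 0.0246 and 0.0431. DUSP1 (0.62) and EGR3 (0.16) did not pass. No rho passed after adjustment, the smallest adjusted exact permutation p being 0.149.

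The AT relations rested in part on the 2 animals whose FOS change was farthest from the median. Without them r stayed at 0.74 for FOSB and 0.70 for EGR1, but fell to 0.26 for JUN, 0.24 for JUNB, 0.19 for IER2, -0.17 for EGR2 and -0.19 for ATF3, so that these 5 relations did not hold without those animals. In the 6 animals with both libraries in the last series r was 0.92 for FOSB, 0.91 for EGR1, 0.97 for EGR2, 0.95 for ATF3, 0.90 for IER2, 0.89 for JUNB and 0.73 for JUN. Those 6 include animal 20275. Without that animal alone, r over 8 animals was 0.74 for FOSB, 0.87 for EGR1, 0.62 for EGR2, 0.55 for ATF3, 0.65 for IER2, 0.71 for JUNB and 0.68 for JUN. Without animals 20275 and 21189 it was between 0.51 for IER2 and 0.82 for EGR1. In SM (6 animals) r was 0.97 for FOSB (rho 0.77, adjusted exact permutation p = 0.0344) and 0.90 for EGR1 (rho 0.89, adjusted exact permutation p = 0.0334), and 0.78 and 0.94 without the 2 farthest animals. JUN had r = -0.79 with FOS in SM (adjusted exact permutation p = 0.128), and -0.06 when libraries were scaled by size alone. Only 1 SM animal had both libraries in the same series, so that no value within a series could be given.

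**Figure D5:**
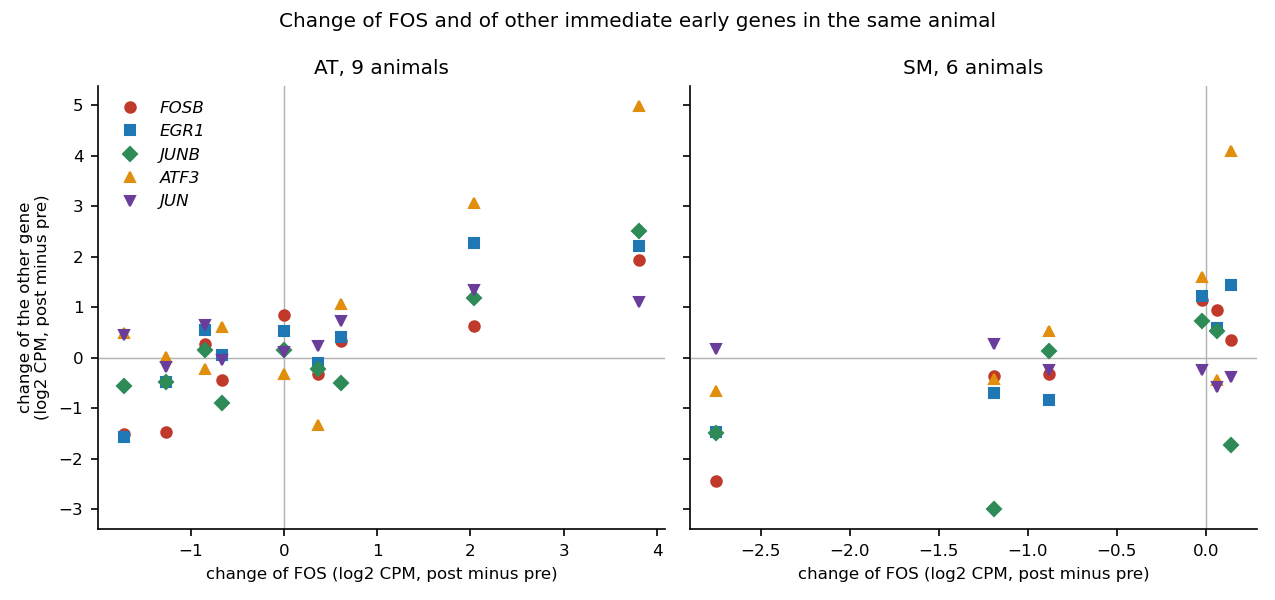
Change of FOS from pre-treatment to post-treatment (x axis, log2 CPM) and change of FOSB, EGR1, JUNB, ATF3 and JUN in the same animal (y axis, log2 CPM), in AT (9 animals) and SM (6 animals). The 2 AT animals with FOS changes of 2.04 and 3.81 lie at the upper right, and r without the 2 farthest animals was 0.74 for FOSB and -0.19 for ATF3.

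The levels of a member in AT and SM of the same animal were not shown to be related. Of 20 relations (10 members, 6 animals pre-treatment and 7 post-treatment) none passed, 16 were positive and the median r was 0.40. The share over all genes was not computed, so these counts have no background. The members share the same few animals, so the 20 values are not independent. With so few animals only the most extreme pairings could pass after adjustment, so the lack of a call says little. The closest was EGR2 pre-treatment (r = 0.89, rho = 0.94, exact permutation p = 0.00694, adjusted p = 0.139; r = 0.85 without the 2 farthest animals). At washout fewer than 6 animals had both tissues.

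Genes with the pattern most like the members were ranked by r, over the libraries of a tissue, with the mean standardized level of the 10 members after time point means were removed. In AT (27 libraries) these were ZFP36 (r = 0.94), which destabilizes AU-rich mRNAs, AKIP1 (0.86), SOCS3 (0.86), a feedback inhibitor of cytokine signaling, ARHGAP4 (0.85) and FBXL19 (0.84). The members' own r, which includes each in the mean, was highest for JUNB (0.94) and EGR1 (0.92) and lowest for DUSP1 (0.59). In SM (21 libraries) the genes were GREM1 (0.85), a BMP antagonist at a mean of 0.507 CPM, the matrix protein gene CYR61 (0.84), IFT43 (0.83), MCRIP1 (0.83) and smooth muscle actin, ACTA2 (0.81). Among the members in SM, FOS had the highest r (0.91), and DUSP1 (0.54), ATF3 (0.25) and JUN (-0.27) had the lowest. This r was computed with TMM scaling alone. In the relation with the change of FOS in SM, r was 0.59 for ATF3. For JUN it was -0.79 with TMM scaling and -0.06 by library size. The libraries share animals and marker levels, and these values are a description.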

How the data were processed

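Counts of reads per gene were measured by RNA sequencing of stranded mRNA libraries from 27 AT and 21 SM biopsies. The authors aligned the reads to the MacaM genome and deposited the counts per gene without normalization, and the submitters' processing notes name FastQC, STAR, SAMtools, edgeR and limma. The table pairs genes with human symbols. Of 16103 entries, 70 repeats of a gene, all with the same counts, were dropped, which left 16033 genes, 33 of them without a symbol. The labels list 51 samples, of which 3 from SM (animal 20456 at pre-treatment and animal 21866 at pre-treatment and washout) were not analysed here. No genome coordinates or sequences were used here.

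Genes that reached 0.5 CPM in 10% or more of a tissue's libraries were tested with edgeR 4.0.16 in R 4.3.3 after TMM normalization. Each tissue had its own robust quasi-likelihood fit, with time point and animal as terms, and p-values were adjusted by Benjamini and Hochberg's method over all genes tested. Tissues were compared in a joint fit. The animal in the labels pairs the libraries. Its term removes differences in level between animals, so that p-values rest on the spread between biopsies that remains after time point and animal. Log2 CPM used a prior count of 2. The fits were tested on simulated data. Relations over animals used exact permutation tests in Python 3.11.15 with NumPy 2.4.6, pandas 2.3.3 and SciPy 1.17.1, and figures were drawn with matplotlib 3.10.9. At these depths 0.5 CPM is few counts, and counting error adds to the spread of low genes such as EGR2 in SM.

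Members and gene lists (5 of pathways, 10 of cell types) were chosen with earlier results of these data known. Named were every member, the 5 other genes most like the members in each tissue, and up to 3 DE genes with the largest log2 fold change per pathway list and comparison, some of which are not reported here. Alternatives were limma 3.58.1 with voomWithQualityWeights, DESeq2 1.42.0, other size factors, other filters on counts, a model lacking the animal, no limit on the fold change, a fit restricted to the 2 time points in question, the library series as a covariate, each animal left out, a prior count of 0.5 and AT without the pre-treatment library of animal 20275. Added after the data were seen were edgeR's earlier quasi-likelihood method and SM without the 4 libraries whose muscle markers summed to under 110000 CPM.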

Additional observations from a re-analysis of the deposited data

Results flagged for a closer look

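Over the 60 groups formed by a gene, a tissue and a time point, 2 held a library farther from the rest on the log2 CPM scale than Dixon's test allows, and chance gives about 1 in 20 such groups. EGR1 in SM post-treatment was at 108 CPM in animal 21189, with the next library at 20.9 CPM. ATF3 in AT post-treatment was at 226 CPM in animal 20275, with the next at 65.1 CPM. Values of the cell type markers in both libraries stand beside their levels in the report.

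The change differed between SM and AT for 2 members in the test of the difference itself. From post-treatment to washout the change of JUN was higher in SM than in AT by 0.76 on the log2 scale (SE 0.22). For DUSP1 the SM change minus the AT change was -1.22 from post-treatment to washout (SE 0.32) and -1.18 from pre-treatment to washout (SE 0.33).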

How the results depend on the processing

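Of the alternatives listed with the methods, none moved the count of DE members in SM post-treatment. In AT post-treatment it went from 1 to 0 with limma, with only the 2 time points compared, with the library series as a covariate and without the pre-treatment library of animal 20275 (0 to 1 with each animal left out). From post-treatment to washout in AT it went from 2 to 1 with the series (0 to 2 with each animal left out), and from pre-treatment to washout from 0 to 1 with limma, DESeq2, library size scaling and the 2 time points (0 to 1 with each animal left out). For SM washout it went from 0 to 1 with DESeq2 and with the series in both comparisons, and against pre-treatment also without the libraries low in muscle markers (1). For the difference between tissues it became 2 post-treatment without those libraries, 0 (limma), 1 (library size), 1 (those libraries) and 1 to 2 (each animal left out) from post-treatment to washout, and 2 with the series from pre-treatment to washout. Between tissues post-treatment it was 3 by library size, and in SM 3 members were beyond the 90th percentile of spread with a prior count of 0.5. The causes were not tested.

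The animal pairs the libraries. Without the replicate block the count of DE members was 0 in AT post-treatment (JUN 0.44, adjusted p = 0.0737), and EGR1 turned to 0.11 (AT washout compared to post-treatment) and 0.0023 (SM post-treatment). The block moved no other count of DE members in AT or SM by over 1.5 times.

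Of 67 other log2 fold changes of members, none of them DE in any alternative, 42 turned sign in some alternative and 25 in none. The values given next are not among these 67, and some of them were DE in a fit. EGR3 between tissues post-treatment (0.35) was -1.84 (adjusted p = 0.00615) without the libraries low in muscle markers, -0.24 with limma, -0.16 by library size and -0.23 (without 21189) to 0.61 with each animal left out. FOS in AT became -0.15 (post-treatment) and -0.12 (washout compared to pre-treatment) with limma and -0.11 without animal 20275. With each animal left out it ranged from -0.11 to 0.64 post-treatment, and from post-treatment to washout from -0.29 to 0.64 (-0.07, -0.05 and -0.15 without 21189, 23004 and 26292). EGR1 in that comparison in AT was 0.045 (limma), 0.034 (library size), 0.021 (2 time points), 0.069 (series), 0.031 (without the pre-treatment library of 20275) and -0.30 to 0.39 with each animal left out (above 0 without 20261, 20275 or 22130). In SM post-treatment EGR1 was 0.040 (2 time points), 0.10 (series) and -0.42 to 0.083 with each animal left out (above 0 without 19832, 20456, 23004 or 24849). FOS in SM from post-treatment to washout was 0.10 (limma), -0.76 to 0.058 (each animal left out, highest without 21189) and 0.31, and EGR1 0.21, without the libraries low in muscle markers. ATF3 in SM between pre-treatment and washout was 0.0084 (2 time points) and -0.22 to 0.26 (each animal left out, above 0 without 20275 or 23004). JUN between tissues post-treatment was -0.20 by library size, and DUSP1 at washout -0.32 to 0.23 (without 21189) with each animal left out.

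The number of DE genes ranged from 805 (without animal 22130) to 2607 in AT post-treatment (2068 as reported), from 0 to 2648 (series) in SM at washout compared to post-treatment (24) and from 0 to 1353 (series) compared to pre-treatment (8), in both 0 without animal 19832. The difference between tissues gave 0 to 1968 post-treatment (6), 1716 to 4144 from post-treatment to washout (2794) and 1429 to 3834 from pre-treatment to washout (2157). By library size, the share of DE genes that were higher went from 49.7% to 63.0% (AT washout compared to post-treatment), from 61.1% to 79.7% (compared to pre-treatment) and, for the difference between tissues, from 47.7% to 25.02% and from 47.8% to 23.5%. Depth limits EGR2, EGR3 and FOSB in SM most, with as few as 1, 3 and 3 reads in a library.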
